A study of Mus musculus with 3 samples.

Results

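The miR-26 family of microRNAs (miRNAs) was examined in exosomes, the small vesicles that cells release, from bone-marrow-derived macrophages of adult wild type C57BL/6 mice. Its members were taken by name and are the guide strands mmu-miR-26a-5p and mmu-miR-26b-5p and the opposite strand mmu-miR-26b-3p (written without the mouse prefix below), 3 of the 1915 mature miRNAs listed. The series holds 1 group of 3 libraries, called libraries 1, 2 and 3 after the numbers in their titles. Marrow cells were given M-CSF, the macrophage growth factor, for 24 h, then kept in medium with serum depleted of exosomes, and vesicles were pelleted by ultracentrifugation after 72 h of culture. All libraries share this genotype and treatment, with no second condition and no library of the parent cells, and the labels do not say whether they came from separate cultures or animals. SDs thus reflect how far these particular libraries differ, possibly for technical reasons alone. The p-values also hold for these libraries only, whether a test compares libraries or compares miRNAs within a library.

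A miRNA hairpin is cut into a duplex of a 5p and a 3p strand. One strand, the guide, is usually kept in Argonaute, where bases 2 to 8, the seed, select target mRNAs, and the other, the passenger, is mostly degraded. The miR-26 hairpins lie inside genes of small phosphatases that act on the tail of RNA polymerase II, and miR-26 guides are known as brakes on proliferation that repress the histone methyltransferase Ezh2. In immune cells and macrophages they have been tied to the cytokine interleukin-6 and the cholesterol exporter Abca1.

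The mature strands show what the members share and where the counts can or cannot tell them apart. Sequences are those of RefSeq (GRCm38.p6), where all 3 members were found, and capitals mark the seed.
miR-26a-5p: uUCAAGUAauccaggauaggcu
miR-26b-5p: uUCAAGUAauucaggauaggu
miR-26b-3p: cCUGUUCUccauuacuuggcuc
miR-26a-1-3p: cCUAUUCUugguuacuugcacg
miR-26a-2-3p: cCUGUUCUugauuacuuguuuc
The last 2 are the passenger strands of miR-26a, which carry a gene copy number in their names. The guides have the same seed, UCAAGUA, which no other mature miRNA in the RefSeq table has. Counted from the 5′ end of miR-26a-5p, they differ by C11U and C21U, and miR-26a-5p is 22 bases long against 21 for miR-26b-5p. The passenger miR-26b-3p has the seed CUGUUCU in common with miR-26a-2-3p, from which it differs at 4 positions, C9U, C10G, G19U and C20U. Outside the family, miR-6932-3p and miR-7039-3p have that seed too. MiR-26a-1-3p has a seed of its own, with G4A relative to miR-26b-3p.

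The guide miR-26a-5p is made from 2 hairpins, so its counts cannot be divided between them. Both copies and the miR-26b hairpin are shown with their annotated strands in capitals, since only the 3p strand tells the miR-26a copies apart.
Mir26a-1: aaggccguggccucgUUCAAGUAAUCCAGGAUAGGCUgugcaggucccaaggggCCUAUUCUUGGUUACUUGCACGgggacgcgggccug
Mir26a-2: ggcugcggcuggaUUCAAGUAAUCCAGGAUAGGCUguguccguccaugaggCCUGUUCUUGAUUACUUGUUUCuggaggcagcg
Mir26b: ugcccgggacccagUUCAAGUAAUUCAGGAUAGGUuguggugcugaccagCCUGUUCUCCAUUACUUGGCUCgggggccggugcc
Mir26a-1 lies at chr9:119031796-119031885 on the plus strand, in intron 5 of an 8-exon transcript of Ctdspl (GENCODE M21). Mir26a-2 lies at chr10:126995530-126995613 on the plus strand, in intron 5 of a Ctdsp2 transcript that also has 8 exons. Mir26b lies at chr1:74394310-74394394 on the plus strand, in intron 4 of a 7-exon transcript of Ctdsp1. None of the hairpins overlapped an exon of the host transcripts listed there, and each is on the strand of its host. The guides occupy chr9:119031811-119031832 and chr10:126995543-126995564 for miR-26a-5p and chr1:74394324-74394344 for miR-26b-5p, and miR-26b-3p occupies chr1:74394360-74394381.

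The libraries held 3008995, 2489984 and 3208617 counts assigned to miRNAs, to which all levels are scaled as counts per 1000000 miRNA counts (CPM). A count of 0 allows up to 3 counts, or 0.997, 1.20 and 0.935 CPM in libraries 1, 2 and 3. Library 1 stood apart from the others: the chi-square test of counts against library totals called 318 of 353 miRNAs (90.1%), and 177 of 288 without library 1. Of the macrophage and myeloid markers 5 of 6 were lowest in library 1, as were 27.5% of all tested miRNAs, and 6 of 6 with TMM factors, a scaling by trimmed mean ratios, beside 38.2%. One of the 5, miR-146a-5p, was nearly flat at 33401, 35012 and 36543 CPM. The markers summed to 7.12%, 34.5% and 30.01% of counts in libraries 1, 2 and 3, mostly as miR-21a-5p. None of these markers was at 0, and the lowest of them, miR-223-3p, had 107, 131 and 106 counts. Without miR-21a-5p and miR-146a-5p the markers were far lower. MiR-142a-3p stood at 42.9, 1364 and 819 CPM and miR-155-5p at 74.8, 2388 and 829 CPM. The liver marker miR-122-5p, at 322, 548 and 1500 CPM, was above both in libraries 1 and 3 and below both in library 2. Markers of other cells summed to at most 0.00881% (erythroid), 0.00438% (endothelial), 0.0229% (epithelial), 0.150% (liver) and 0.000266% (muscle) in any library. These sets hold 1 or 2 miRNAs each, against 6 for macrophages, so the sums do not measure shares of cell types. The part of these differences in the miR-26 results was not tested.

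The guide miR-26a-5p was the most abundant member, with 3422, 14197 and 20566 counts in libraries 1, 2 and 3. That was 1137 CPM in library 1 (Wilson 95% interval 1100 to 1176), 5702 CPM in library 2 (5609 to 5796) and 6410 CPM in library 3 (6323 to 6498). These intervals cover counting error only. Library 1 was low and libraries 2 and 3 were close, 1.12-fold apart, so that the mean of 4416 ± 2862 CPM (SD, n = 3) lay near none of the libraries. Its rank among all miRNAs was 58 in library 1, 28 in library 2 and 23 in library 3.

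The guide miR-26b-5p, from the single Ctdsp1 hairpin, had 2671, 7537 and 6134 counts. Its level was 888 CPM (855 to 922) in library 1, 3027 CPM (2959 to 3096) in library 2 and 1912 CPM (1865 to 1960) in library 3. Library 1 was again the lowest, but the highest library was 2 and not 3. The mean was 1942 ± 1070 CPM (SD, n = 3), and the ranks were 71, 39 and 42.

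The passenger miR-26b-3p was close to the limit of detection. It had 5, 4 and 2 counts, or 1.66 CPM (0.710 to 3.89), 1.61 CPM (0.625 to 4.13) and 0.623 CPM (0.171 to 2.27) in libraries 1 to 3, with a mean of 1.30 ± 0.584 CPM (SD, n = 3). The 3 intervals overlap, and counts this low cannot show whether the libraries differ. The library 3 value is below the level of 3 counts.

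**Figure D1:**
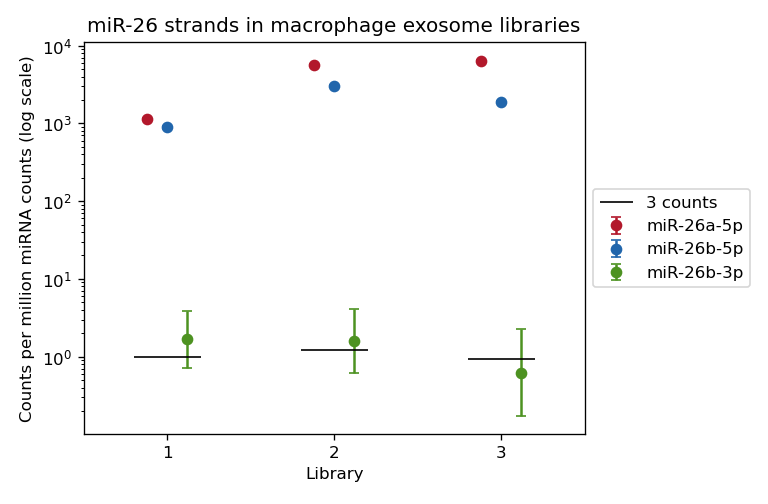
Level of each miR-26 strand (CPM, log scale) in each library, with 95% Wilson intervals as bars (smaller than the points for the guides) and black lines at the level of 3 counts. Both guides sit lowest in library 1, at 1137 and 888 CPM, while miR-26b-3p lies between 0.623 and 1.66 CPM.

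Together the 3 strands took 0.203% of miRNA counts in library 1 (Wilson 95% interval 0.198 to 0.208), 0.873% in library 2 (0.862 to 0.885) and 0.832% in library 3 (0.822 to 0.842). Nearly all of it was guide strand. Both guides passed the chi-square test, with statistics of 11221 for miR-26a-5p and 3326 for miR-26b-5p on 2 degrees of freedom. With 90.1% of all tested miRNAs passing as well, the calls stand at the background, and they compare libraries, not conditions. MiR-26b-3p had too few counts to enter the test.

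Both tested guides were lowest in library 1, which held for 97 of the 353 tested miRNAs (27.5%). The log2 ratio of library 1 to library 2 was -2.33 for miR-26a-5p and -1.77 for miR-26b-5p, and that of library 1 to library 3 was -2.49 and -1.11. Over all tested miRNAs, scaled to miRNA totals, the median ratio had the other sign, 0.72 and 0.96. The TMM factors were 1.41, 0.919 and 0.774 in libraries 1, 2 and 3, and scaling by them would make both medians smaller. Scaling by TMM factors in place of the miRNA total put 135 of the 353 (38.2%) lowest in library 1 and left both guides lowest there, at log2 ratios of -2.94 and -2.38 against library 2 and -3.36 and -1.97 against library 3. Of the 134 miRNAs that averaged 100 CPM or more, 40 had a wider gap between their highest and lowest library than miR-26a-5p (5.64-fold) and 68 a wider one than miR-26b-5p (3.41-fold), where the median gap was 3.60-fold. Both gaps lay within the range seen for other abundant miRNAs.

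In the order of mean levels miR-26a-5p stood at place 33, between miR-22-3p at 4579 ± 846 CPM and miR-148b-3p at 4105 ± 1655 CPM (SD, n = 3 each). It was above both in libraries 2 and 3 and below both in library 1, so that its difference from either neighbour was smaller than the spread (two-sided exact sign-flip test, p = 1.0 for each). MiR-26b-5p stood at place 48, between miR-484 at 1958 ± 2849 CPM and miR-101a-3p at 1888 ± 752 CPM (SD, n = 3 each). The mean of miR-484 came from library 1, where it stood at 5248 CPM against 363 and 264 in the others. MiR-26b-5p too was above both in libraries 2 and 3 and below both in library 1, and the exact sign-flip p was 0.50 against miR-484 and 1.0 against miR-101a-3p. Neighbours were picked for the closest mean in these same libraries, so the sign-flip tests against them cannot decide whether levels differ. MiR-26b-3p stood at place 454, level with miR-3964, which had the same 5, 4 and 2 counts, and next to miR-7658-5p with 9, 0 and 3 counts.

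The balance between the guides was not constant. MiR-26a-5p made up 56.2% of the 5p counts of the family in library 1 (Wilson 95% interval 54.9 to 57.4), 65.3% in library 2 (64.7 to 66.0) and 77.0% in library 3 (76.5 to 77.5). There were thus 1.28, 1.88 and 3.35 counts of miR-26a-5p per count of miR-26b-5p. This ratio is taken within a library and does not depend on the scaling. MiR-26a-5p was the higher guide in 3 of 3 libraries, by a mean log2 ratio of 1.01 ± 0.70 (SD, n = 3; two-sided exact sign-flip test, p = 0.25, the smallest p that 3 libraries allow).

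That the balance differed among the libraries was tested on the 2 by 3 table of guide counts. The chi-square statistic was 1410 (p = 5.2e-307), which sets the libraries against counting error alone. The ratio was 1.47 times as high in library 2 as in library 1 (95% interval 1.39 to 1.56), 2.62 times as high in library 3 as in library 1 (2.47 to 2.77) and 1.78 times as high in library 3 as in library 2 (1.71 to 1.85). All 3 intervals lie above 1, and the smallest difference had an adjusted chi-square p of 2.9e-39 over the 3 pairs. From library 2 to library 3 the guides went opposite ways: the level of miR-26a-5p was 1.12 times and that of miR-26b-5p 0.632 times as high in library 3. With TMM factors the log2 ratios of library 2 to library 3 kept these signs, at -0.42 for miR-26a-5p and 0.41 for miR-26b-5p.

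**Figure D2:**
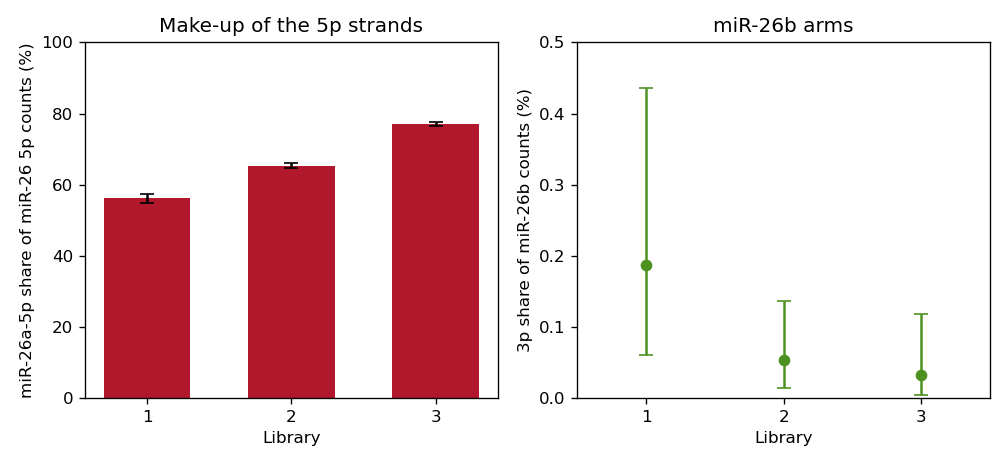
Left, the share of miR-26a-5p in the 5p counts of the family (%) per library, with 95% Wilson intervals; right, the share of the 3p strand in the miR-26b counts (%), with exact 95% intervals. The left bars stand at 56.2%, 65.3% and 77.0% with intervals that do not overlap, while those on the right, between 0.0326% and 0.187%, do.

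The miR-26b hairpin was represented almost wholly by its 5p strand. The 3p strand made up 0.187% of the miR-26b counts in library 1 (exact 95% interval 0.0607 to 0.435), 0.0530% in library 2 (0.0145 to 0.136) and 0.0326% in library 3 (0.00395 to 0.118). As a ratio, the 5p strand had 534 counts per 3p count in library 1 (229 to 1647), 1884 in library 2 (736 to 6917) and 3067 in library 3 (849 to 25331). The share looked highest in library 1, but none of the 3 pairs of libraries passed Fisher's exact test, with adjusted p-values of 0.088, 0.088 and 0.70.

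In edgeR's quasi-likelihood test of 5p against 3p counts over 157 hairpins, the log2 ratio of miR-26b was 10.41 (Benjamini-Hochberg adjusted p = 3.4e-14), and the per-library log2 ratios averaged 10.51 ± 1.30 (SD, n = 3). The 5p strand was higher in 3 of 3 libraries. Without library 1 the fitted log2 ratio was 11.12, and it was 10.18 and 9.92 without libraries 2 and 3. An uneven pair of arms was the rule here, since 126 of the 157 hairpins (80.3%) passed the test in either direction and 65 (41.4%) with the 5p strand higher. Against a median absolute log2 ratio of 6.24 over all hairpins tested, miR-26b ranked 27 by the size of the ratio. That order includes 24 hairpins whose lesser strand had no counts, for which the fitted ratio depends on the prior count of the model.

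The hairpins of miR-26a were not in that test because their 3p strands are named by copy. No count of miR-26a-1-3p was found in any library. With 3 counts taken as its limit, miR-26a-5p was at least 1141-, 4732- and 6855-fold higher in libraries 1, 2 and 3. These folds are not arm ratios of Mir26a-1, because the miR-26a-5p counts come from both hairpins and cannot be divided. MiR-26a-2-3p had 6, 1 and 0 counts. The 3 passenger strands of the family together had 11, 5 and 2 counts, or 3.66, 2.01 and 0.623 CPM, where the guides had 2025, 8729 and 8321 CPM. The sum of the passengers was thus highest in the library where the guides were lowest, on a few counts.

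Over the 3 libraries the guides had profiles that resembled different miRNAs. Likeness was the distance between log2(CPM + 1) values after the mean of each miRNA over the libraries was taken off, among miRNAs that averaged 100 CPM or more. Nearest to miR-26a-5p among 133 others were miR-182-5p at a distance of 0.20, miR-7b-5p at 0.21, miR-200c-3p at 0.32, miR-7a-5p at 0.38 and miR-30e-3p at 0.47. MiR-182-5p, a member of the miR-183 cluster, stood at 1068, 6441 and 7071 CPM in libraries 1 to 3, near the levels of miR-26a-5p itself. MiR-200c-3p, known from epithelial cells, was far lower, at 20.3, 142 and 152 CPM.

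Nearest to miR-26b-5p were miR-330-5p at 0.21, miR-30c-5p at 0.30, let-7c-5p at 0.41, miR-19b-3p at 0.45 and miR-98-5p at 0.48. MiR-30c-5p, whose family is linked to differentiation, stood at 438, 1899 and 1235 CPM, and miR-98-5p, which has the let-7 seed, at 293, 1158 and 1001 CPM. All 5 were highest in library 2, as miR-26b-5p was, which follows largely from their choice by likeness. No name was in both sets of 5, and the guides were 0.99 apart from each other, which made miR-26b-5p number 14 from miR-26a-5p and miR-26a-5p number 18 from miR-26b-5p. With 3 libraries such a distance describes these libraries only.

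**Figure D3:**
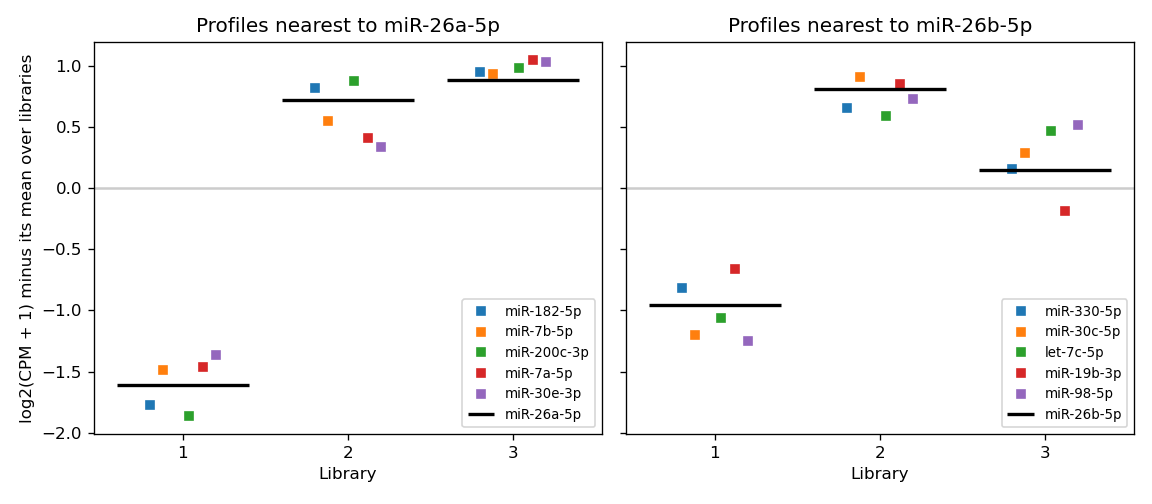
Centred profiles, as log2(CPM + 1) minus its mean over the 3 libraries, of miR-26a-5p (left, black lines) and miR-26b-5p (right, black lines) with the 5 nearest miRNAs of each as coloured squares. All profiles on the left are highest in library 3 and all on the right in library 2, which follows largely from their choice by likeness.

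The guides are poorer in G and C than most abundant miRNAs in these libraries. G and C made up 40.9% of miR-26a-5p and 33.3% of miR-26b-5p, against a median of 45.8% over the 119 miRNAs of at least 100 CPM that have a RefSeq sequence (88.8% of 134). Of these 119, 46 had a GC share no higher than that of miR-26a-5p and 10 no higher than that of miR-26b-5p. Among the 46, 27 were lowest in library 1, against 11 of the other 73. With TMM factors these counts were 31 of 46 and 20 of 73. Over the 119 miRNAs, Spearman's rho between GC share and the log2 ratio of library 1 to library 2 was 0.56, and to library 3 it was 0.49, whereas for library 2 to library 3 it was -0.043. MiRNAs of low GC share thus tended to have lower levels in library 1, with exceptions such as miR-101a-3p, which has a GC share of 33.3% and log2 ratios of 0.70 and 1.10. The points share libraries and depth. Leaving out the let-7 family with miR-98 and miR-26 left 107 miRNAs and rho of 0.49 and 0.41.

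Within the family the order was different. MiR-26b-5p has the lower GC share of the guides, yet miR-26a-5p was further below its levels in libraries 2 and 3, 5.01- and 5.64-fold lower in library 1 against 3.41- and 2.15-fold for miR-26b-5p. The part of base composition in the low guide levels of library 1 was not tested.

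**Figure D4:**
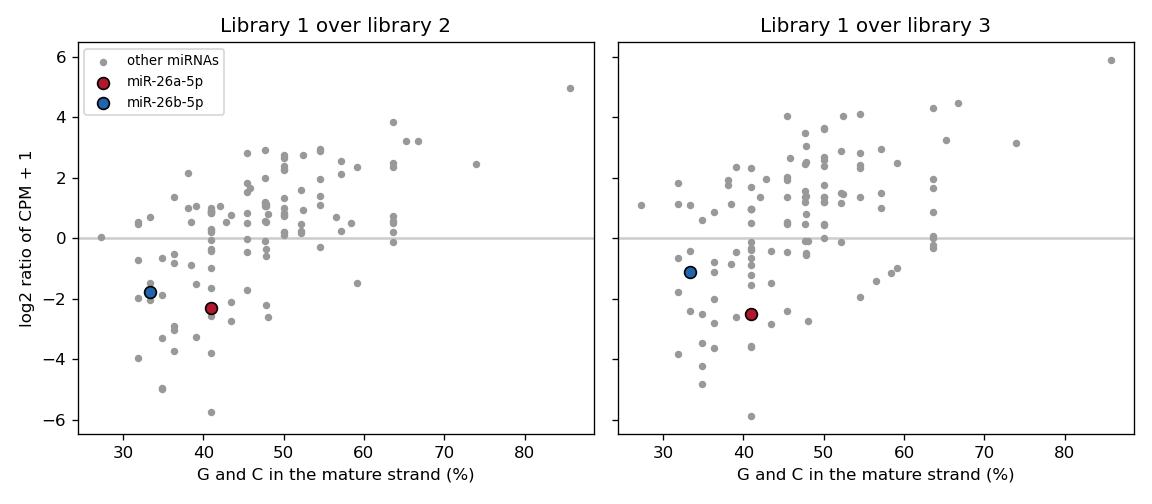
GC share of the mature strand (%) against the log2 ratio of CPM + 1 in library 1 to library 2 (left) and to library 3 (right), for 119 miRNAs that averaged 100 CPM or more. The points run upward from left to right (rho 0.56 and 0.49), and both guides, in red and blue, lie in the lower left.

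The transcription factor MYC is known to repress miR-26 genes together with other miRNAs that restrain growth, and 22 of these others were listed. Of the list 20 had enough counts for the chi-square test and 20 of these passed, beside 90.1% of all. In library 1, 11 of the 20 were lowest, beside 27.5% of all, and 14 of the 20 with TMM factors, beside 38.2%. Scaled to miRNA totals, the list summed to 30.7%, 27.6% and 24.3% of counts in libraries 1, 2 and 3. MiR-99a-5p was the largest part in library 1, at 171777 CPM. The order of these sums depends on the scaling, since with TMM factors the sum would be lowest in library 1. The 11 were let-7a-5p, let-7c-5p, let-7d-5p, let-7f-5p, let-7g-5p, miR-29b-3p, miR-29c-3p, miR-30b-5p, miR-30c-5p, miR-146a-5p and miR-195a-5p. Of the let-7 strands on the list, which repress growth genes, let-7f-5p had the widest gap, at 4677, 72470 and 66530 CPM. MiR-29b-3p, a repressor of collagen genes, stood at 12.6, 133 and 384 CPM.

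When scaled to miRNA totals, the other tested members of the list were not lowest in library 1. MiR-30d-5p, at 53194, 16606 and 13018 CPM, and miR-99a-5p, at 171777, 68716 and 50770 CPM, were highest there. MiR-16-5p, which represses cyclins, stood at 4307, 3030 and 2973 CPM. The median log2 ratio of the list was -0.06 for library 1 to library 2 and -0.56 for library 1 to library 3, beside 0.72 and 0.96 for all tested miRNAs. Of the members too low for the test, miR-150-5p had 0, 0 and 1 counts and miR-497a-5p had 5, 14 and 9, lowest in library 1.

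Ezh2, a target of miR-26, is also repressed by other miRNAs, of which 6 were listed, 4 with enough counts for the test. All 4 passed the chi-square test, beside 90.1% of all, and 1 of them, miR-98-5p, was lowest in library 1. That is close to the 27.5% of all tested miRNAs, and with TMM factors it was again 1 of 4, beside 38.2%. This count rests on the choice of members, since all tested ones but miR-98-5p are miR-101 strands. The let-7 strands, which have the seed of miR-98-5p, were not on this list. Those on the MYC list were all lowest in library 1. MiR-101a-3p, with 2723, 1675 and 1266 CPM in libraries 1 to 3, was highest where the miR-26 guides were lowest, as were miR-101b-3p with 2155, 1019 and 835 CPM and miR-101c with 45.5, 29.3 and 14.3 CPM. Library 1 therefore held more miR-101a-3p than either miR-26 guide, and libraries 2 and 3 held more of both guides than of miR-101a-3p. MiR-138-5p, with 8, 1 and 2 counts, and miR-214-3p, with 7, 4 and 2, were near the limit of detection.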

How the data were processed

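Small RNA of exosome pellets was extracted with TRIzol, ligated to adapters, amplified, size-selected on a gel and sequenced as 50-base single reads on an Illumina HiSeq, per the labels' protocols. No molecular identifiers are mentioned, so counts are of PCR products. The submitters' processing notes name bcl2fastq, BWA and mm10. Trimming, mismatch limits, miRNA release and handling of reads that match several miRNAs are not given in the sources used here. Reads could thus be assigned to the wrong guide through sequencing errors. MiR-199a-3p and miR-199b-3p had equal counts (672, 312 and 367), as had miR-486a-5p and miR-486b-5p (163, 24 and 14). Some reads may therefore be counted under several names, in the totals as well.

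For each mature miRNA the authors deposited a raw count and a normalized value, RPM, whose denominator, worked out from the deposited columns, was 14047692, 13995845 and 14002577. Counts were scaled to each library's miRNA total, which is 21.4%, 17.8% and 22.9% of that denominator.

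The chi-square test took miRNAs with 30 or more counts over the libraries, the arm test (edgeR 4.0.16, terms library and arm) the hairpins with both arms under 1 name and 60 or more counts, both with Benjamini-Hochberg adjustment at 0.05 over all features. Alternatives used TMM, DESeq2 1.42.0, the deposited RPM, other filters and each library left out. Named miRNAs were the members, the passenger strands of miR-26a, neighbours in level, the 5 nearest profiles of each guide, the lists and the markers. A few more were named for a shared seed or equal counts. Members, lists and markers were chosen with earlier results of these data known. Positions are from RefSeq GRCm38.p6 and GENCODE M21, which match mm10.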

Additional observations from a re-analysis of the deposited data

How the results depend on the processing

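Of the alternatives run, 53 kept the direction or call, a level within 1 SD of its value, or a count within 1.5 times, and 6 did not. Part of the 53 could not have failed. With 3 libraries, leaving 1 out cannot move a mean level or share by 1 SD. The guide ratio was above 0 on the log2 scale in every library, so leaving 1 out could not change its direction. Among the 53, hairpins called in the arm test numbered 99 to 168 against 126, and members of the MYC list lowest in library 1 numbered 14 against 11. The deposited RPM gave means of 909, 389 and 0.262 for miR-26a-5p, miR-26b-5p and miR-26b-3p and a family share of 0.130%, lower because its denominator holds more than miRNA counts. The number of miRNAs that differed between libraries was 177 of 288 tested (61.5%) without library 1. It was 284 of 327 (86.9%) without library 2 and 279 of 319 (87.5%) without library 3. Among miRNAs of at least 10 CPM, 2 of the 5 profiles nearest to miR-26b-5p were the same as at 100 CPM, since more miRNAs were compared. Leave-one-out means were 3419 to 6056 CPM for miR-26a-5p and 1400 to 2469 CPM for miR-26b-5p, and the log2 ratio of the guides was 0.64 to 1.33. The TMM and DESeq2 scalings of the lists, the lower CPM limit for GC share and the set without let-7, miR-98 and miR-26 were chosen after seeing the data. No paired analysis was possible because there was 1 group, and pairing within a library is part of the arm and sign-flip tests. Depth limits all statements on the passenger strands, which had at most 6 counts in a library.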
